A study of Rattus norvegicus with 6 samples.

Results

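Deferoxamine-treated and untreated FAO cells were compared for the level of each RNA on one-colour rat expression arrays. FAO is an established line derived from a rat hepatoma, and the labels call it a liver cell line. Both pools were grown in DMEM with serum for 24 h. The treated cells also received deferoxamine, which chelates iron, at 100 µM, and the untreated cells 0 µM. Total RNA of 3 cultures was mixed before labelling, so each group is 1 array of 1 pool, and these are 2 of the 6 arrays of the series. The other 4 hold pooled liver or kidney RNA of 6 Wistar rats each, kept for 4 weeks on AIN-93G food that held iron or lacked it (the labels call the animals mice in places), and are used below only for comparison. The arrays of the pair were chosen by their sample titles, and all genes well above background on at least 1 of them were compared: 10691 of the 19958 genes with probes. Since each condition is a single array, no difference could be checked on replicates or tested. The ± values are standard errors from repeated spots of a probe, pooled over probes of similar signal, and they say nothing about the spread between cultures.

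Deferoxamine binds ferric iron and lowers the iron that cells can use. Several groups of enzymes need that iron. The prolyl hydroxylases Egln1, Egln2 and Egln3 mark the alpha subunits of hypoxia-inducible factor (HIF) for destruction through Vhl, and without iron HIF accumulates and switches on genes for glucose uptake, glycolysis, blood vessel growth and mitophagy, as it does in low oxygen. Iron regulatory proteins (Aco1, Ireb2) bind messenger RNAs when iron is scarce, which stabilises transferrin receptor RNA and blocks translation of ferritin RNA without necessarily changing its amount. Ribonucleotide reductase, heme synthesis and iron-sulfur proteins also depend on iron.

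A gene was called higher or lower when its scaled signals differed by at least 2-fold (log2 1). Scaled signal is the linear spot intensity after each array had been brought to a common 75th percentile. Signals are compared between arrays for 1 probe, never between probes. Where a probe was not well above background on one array, the difference is a bound and is written "at least N-fold". That bound sets the mean on the brighter array against the lowest signal well above background on the other array, or the probe's own signal there if that is higher. Of 10691 genes, 418 (3.91%) were higher and 428 (4.00%) lower in treated cells. Among the 9760 genes above background on both arrays these counts were 264 (2.70%) and 244 (2.50%). The median difference was 0.00 and 84.7% of the genes above background on both arrays lay within 1.5-fold. Because a rectangle of 96 rows by 32 columns of the treated array was dim, its 2875 spots were left out. Probes with at least 2 spots per array that agreed within a log2 SD of 0.5 were used first, and 7017 genes had one. Of these 202 (2.88%) were higher and 154 (2.19%) lower. Of the 3674 genes with a single spot or disagreeing spots, 216 (5.88%) were higher and 274 (7.46%) lower.

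The arrays carried the RNA of liver-type cells. All 12 hepatocyte markers were well above background on both, among them albumin (Alb) with a scaled signal of 41668 without and 42209 with deferoxamine. Alpha-fetoprotein (Afp), made by fetal liver and many hepatomas, was at 6054 and 3099 (log2 -0.97 ± 0.11), just within 2-fold. Gpc3, Igf2 and Akr1b10, other hepatoma markers, were not well above background. Of all 6 fetal liver and hepatoma markers 3 were well above background on each array. Unlike Afp, the summed signal of the 6 was higher in treated cells, at 13773 and 21588. The summed signal of the 12 hepatocyte markers was higher too, at 178509 and 261422. Such sums add signals of different probes and do not weigh the genes alike. Of 8 leukocyte and macrophage markers 1 was well above background in untreated and 2 in treated cells, and Ptprc, Cd163, Clec4f, Csf1r and Cd3e were below it on both. Of 8 markers each, kidney tubule held 2 and 2, endothelium 2 and 3, stellate cells and fibroblasts 1 and 2, and red cell precursors 1 and 3, untreated first. In such RNA pools fewer cells of a type and less RNA per cell cannot be told apart.

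**Figure D1:**
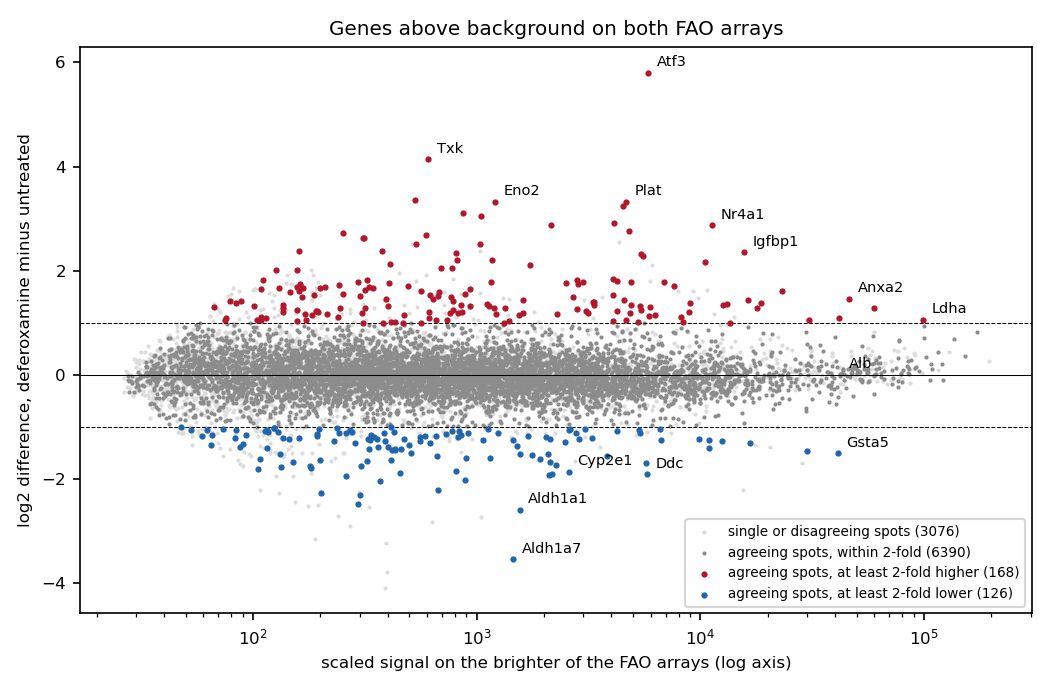
Log2 difference (deferoxamine minus untreated) of every gene above background on both FAO arrays against its scaled signal on the brighter array (log axis). Red and blue points are genes with agreeing spots at least 2-fold higher (168) or lower (126), dark grey points lie within 2-fold, pale points rest on single or disagreeing spots, and dashed lines mark 2-fold. Atf3 stands highest at 5.80, Aldh1a7 is the lowest among genes with agreeing spots at -3.53, and Alb lies at 0.02.

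The largest increase with agreeing spots was in Atf3, a stress-induced transcription factor of the CREB family. Its spots read 103 and 108 in untreated and 5624 and 6109.9 in treated cells, a 55.8-fold rise (log2 5.80 ± 0.39). Plat, tissue plasminogen activator, rose 10.0-fold from 465 to 4658 (3.33 ± 0.15). Txk, a Tec-family kinase best known from T cells, rose 17.6-fold from 34.6 to 609 (4.14 ± 0.83). Dusp8, a phosphatase of stress-activated kinases, went from 125 to 1043 (3.06 ± 0.22), and Rhob, a small GTPase, from 182 to 1036 (2.51 ± 0.22), and by at least 1.84 by its other probe. Gldc, the glycine cleavage decarboxylase, was below background in untreated cells at 5.84 and at 216 in treated cells, at least 9.70-fold higher. Of the genes with agreeing spots, 44 rose and 17 fell by 4-fold or more, and 13 and 3 did so by 8-fold or more.

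Known HIF targets outside glycolysis were the group with the largest share of higher members. Of 47 listed genes 35 were measured, of which 23 were higher, against 3.91% of all measured genes, and 0 were lower. Their median difference was 1.24, against 0.00 over all genes, and 33 of the 35 lay above 0. The count ran from 19 to 25 over the 14 alternative ways of processing, and their range of medians was 1.11 to 1.39.

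Among secreted HIF targets, Angptl4, an inhibitor of lipoprotein lipase, went from 99.9 to 868 (8.69-fold, log2 3.12 ± 0.39). Adm, the vasodilator adrenomedullin, was read by 10 spots per array. They spanned 974 to 1142 in untreated and 4905 to 6106 in treated cells without overlap (2.32 ± 0.05). Vegfa, the growth factor for blood vessels, rose from 2294 to 5420.1 (1.24 ± 0.11), and its other probes gave 0.84, 1.08 and 1.29, of which the first is within 2-fold. Erythropoietin (Epo) reached 33.8 in treated cells from below background, a log2 bound of at least 0.61, which does not settle whether it passed 2-fold. With no filter on dim probes its difference was 2.46.

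HIF targets that act on metabolism and the mitochondrion rose as well. Slc2a1, the glucose transporter GLUT1, rose 3.60-fold from 1134 to 4082 (1.85 ± 0.06). Car9, the carbonic anhydrase of the cell surface that exports acid, rose from 72.7 to 378 (2.38 ± 0.39). Bnip3, a mitophagy receptor, rose from 6025 to 16347 (1.44 ± 0.11). Its relative Bnip3l reached 2.02-fold and fell to 0.99 on the log2 scale under 2 other scalings, so its call rests on the scaling. Ero1a, the oxidase that forms disulfides in the endoplasmic reticulum, rose from 873 to 2999.6 and Ddit4, an inhibitor of mTORC1, from 1691 to 4578. Pdk1, a kinase that inhibits pyruvate dehydrogenase, was at 0.91 and Ak4 at 0.96, both short of 2-fold.

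Some collagen-modifying enzymes on the list were higher too. P4ha1, the catalytic subunit of collagen prolyl 4-hydroxylase, was below background at 15.2 and reached 105, at least 4.73-fold higher. Plod1, a lysyl hydroxylase, rose from 1313 to 3347 (1.35 ± 0.12) and Loxl2, a lysyl oxidase family member, from 223 to 677 (3.04-fold). A separate list of dioxygenases that use iron and 2-oxoglutarate did not hold Egln3, another such enzyme, which is given below. Of the 37 measured members of that list 3 were higher and 1 lower (3.91% and 4.00% of all genes). The median of the 37 was 0.05, against 0.00 over all genes. The 3 were P4ha1, Plod1 and the histone demethylase Kdm3a (220.1 to 785, on single or disagreeing spots), each of which is also on the list of HIF targets. Fto, the RNA demethylase, was the lower one at -1.49 ± 0.70, on disagreeing or single spots.

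Among the oxygen sensors and HIF subunits, Egln3 rose from 186 to 773 (2.06 ± 0.22), while Egln1 went from 488 to 544 (0.16) and Egln2 from 296 to 322 (0.12). With the spots of the dim rectangle kept, Egln1 would have been at -1.86, and the sign for Egln2 turned under 1 alternative. Epas1, which encodes HIF-2 alpha, rose from 49.1 to 158 (1.69 ± 0.85), near background in untreated cells. Hif1a went from 163 to 118 (-0.46 ± 0.28) and stayed within 2-fold, and Vhl was at 0.62. Some listed HIF targets did not move by 2-fold: Mxi1 was at 0.36 and P4ha2 at 0.52. Rbpj was at -0.06.

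Promoter sequences of higher HIF targets and glycolytic genes are shown because the RNA of these genes moved together and HIF is known to bind a short core, ACGTG or GCGTG, in such promoters. They are the RefSeq sequences of assembly GRCr8, read 5′ to 3′ on the strand of the gene and cut from the 250 bases before its annotated start. Capitals mark each core on either strand, so that CACGT and CACGC are the same cores on the other strand. The 6 are those with the largest differences among called members that hold a core.
Eno2, chr4:159267315-159267399, minus strand: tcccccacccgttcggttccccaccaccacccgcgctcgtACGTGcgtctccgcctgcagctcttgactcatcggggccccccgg
Angptl4, chr7:15258867-15258931, minus strand: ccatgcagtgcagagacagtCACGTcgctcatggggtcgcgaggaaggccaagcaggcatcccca
Ankrd37, chr16:53001257-53001506, plus strand: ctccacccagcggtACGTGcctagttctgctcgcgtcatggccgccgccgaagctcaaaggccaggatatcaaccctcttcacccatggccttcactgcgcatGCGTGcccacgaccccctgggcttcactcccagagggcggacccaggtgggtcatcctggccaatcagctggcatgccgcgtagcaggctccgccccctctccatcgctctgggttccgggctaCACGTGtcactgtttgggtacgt
P4ha1, chr20:27844870-27844991, plus strand: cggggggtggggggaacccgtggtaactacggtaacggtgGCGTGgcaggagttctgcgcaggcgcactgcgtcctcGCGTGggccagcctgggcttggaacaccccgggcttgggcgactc
Bhlhe40, chr4:143174200-143174370, plus strand: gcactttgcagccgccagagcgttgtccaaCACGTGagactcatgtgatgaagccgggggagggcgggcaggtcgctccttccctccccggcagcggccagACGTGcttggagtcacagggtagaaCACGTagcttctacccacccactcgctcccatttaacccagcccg
Slc2a1, chr5:138002329-138002521, plus strand: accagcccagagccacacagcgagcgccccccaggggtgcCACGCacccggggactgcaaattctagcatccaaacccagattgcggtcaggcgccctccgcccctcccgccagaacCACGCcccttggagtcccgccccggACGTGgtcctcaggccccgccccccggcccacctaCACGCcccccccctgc

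Counted over the same 250 bases on both strands, ACGTG was in 10 of the 18 promoters found for higher HIF targets (55.6%), in 22.9% of the 8575 found for measured genes and in 16.9% of all 27457 in the table. GCGTG was in 55.6%, 43.7% and 27.2% of these. Either core was in 13 of the 18 (72.2%), against 55.5% for measured genes. The cores were not particular to HIF targets. Among 17 promoters of higher immediate early genes, described below, either core was in 13 (76.5%), GCGTG in 64.7% and ACGTG in 29.4%. Over all 323 promoters of higher genes the share with ACGTG was 23.8%, and over 336 of lower genes 20.5%. A match is only a run of letters, and CACGTG, in which ACGTG overlaps itself on the other strand, was in 4 of the 18.

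Calls were fewer among glycolytic genes. Of 24 measured members 4 were higher and 2 lower (3.91% and 4.00% of all genes), with a median of 0.48, and 18 lay above 0. Eno2, the neuronal enolase, rose 10.0-fold from 120.2 to 1207 (3.33 ± 0.22), and its other probe was at least 2.62 higher on the log2 scale. Aldoa, the muscle-type aldolase, rose from 7388 to 18009 (1.29 ± 0.11) and Pfkl, the liver phosphofructokinase, from 1303 to 3074 (1.24 ± 0.12). Pfkm, the muscle form, went the other way from 117 to 54.8 (-1.09 ± 0.70), a call lost under 2 alternatives. Ldha, which makes lactate, went from 47316 to 98828 (1.06 ± 0.11) and lost the 2-fold call under quantile normalization and under another background correction.

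Other steps of the pathway lay above 0 but within 2-fold by the probe standing for the gene. Tpi1 was at 0.82, Pgk1 at 0.74, Eno1 at 0.67, Gpi at 0.65 and Pgam1 at 0.64. Other probes of Eno1 gave 1.08 and 0.97, of which the first passes 2-fold. Pklr, the liver pyruvate kinase, was at -0.84 ± 0.24. In glycogen metabolism, Pygl, the liver glycogen phosphorylase, was at least 8.05-fold higher (25.9 to 208), and Gys1, the muscle glycogen synthase, was higher at 1.22 on single or disagreeing spots. Among the gluconeogenic genes Pck2, the mitochondrial carboxykinase, fell from 2602 to 1264 (-1.04 ± 0.12), a call lost under 3 alternatives (nearest to 0 at -0.95). Fbp1 was at -0.90, G6pc1 at -0.78 and Pc at -0.63, while the cytosolic Pck1 was at 0.80. Of the 19 measured genes of gluconeogenesis and glycogen 2 were higher and 1 lower (3.91% and 4.00% of all genes), with a median of 0.29.

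Immediate early genes, which cells transcribe within minutes of a stimulus, formed the other large group of increases. Of 40 measured genes 22 were higher and 1 lower (3.91% and 4.00% of all genes), with a median of 1.15. Over the alternatives 16 to 24 were higher. Nr4a1, an orphan nuclear receptor, had 10 spots per array. They read 1331 to 1705 in untreated and 9829.6 to 16386 in treated cells, a 7.35-fold rise (2.88 ± 0.05). Egr1, a zinc finger factor, rose 7.52-fold from 549 to 4128, and 3.09 by its other probe. Jun, a subunit of the AP-1 factor, rose from 51.7 to 528 (3.35 ± 0.83), and its partner Fos was at least 6.86-fold higher (4.98, below background, to 152).

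Btg2, an antiproliferative cofactor, rose from 705 to 4780.3 (2.76 ± 0.13) and Dusp5, a nuclear ERK phosphatase, from 178 to 816 (2.20 ± 0.10). Ier2 and Jund rose by 1.31 and 1.38. Myc was at -0.31, Id2 at -0.34 and Nr4a2 at -0.57, all within 2-fold. Ccn2, connective tissue growth factor, was the single member lower, from 150.5 to 47.3 (-1.67 ± 0.32), and was at -0.98 under another background correction. Outside the list, Nab2, a corepressor of the Egr factors, was at 1.80, Errfi1, an inhibitor of the EGF receptor, at 1.79, and Crem, a CREB-family gene, at 1.79. These 3 were picked out after their values were seen.

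Promoters of 3 members of this group are shown for the letters that CREB-type factors (ACGTCA) and serum response factor (the CArG box) are known to bind. They were picked after the values were seen, from called members that hold such letters, and come from the same RefSeq table. Capitals mark ACGTCA on either strand and CArG boxes.
Btg2, chr13:48087864-48087911, minus strand: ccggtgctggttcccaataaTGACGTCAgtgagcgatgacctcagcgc
Dusp5, chr1:262543672-262543743, plus strand: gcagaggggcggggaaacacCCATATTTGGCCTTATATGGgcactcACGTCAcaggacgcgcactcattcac
Egr2, chr20:21054483-21054544, minus strand: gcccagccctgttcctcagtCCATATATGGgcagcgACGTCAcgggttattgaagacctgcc
ACGTCA was in 8 of 17 promoters of higher immediate early genes (47.1%), against 11.3% for measured genes and 0 of 18 for higher HIF targets. The CArG box was in 4 of the 17 (23.5%), against 1.34% for measured genes. Over all promoters of higher genes the shares were 10.8% for ACGTCA and 2.79% for the CArG box. Over those of lower genes they were 5.06% and 2.68%. The capitals in Dusp5 cover 2 CArG boxes that abut.

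**Figure D2:**
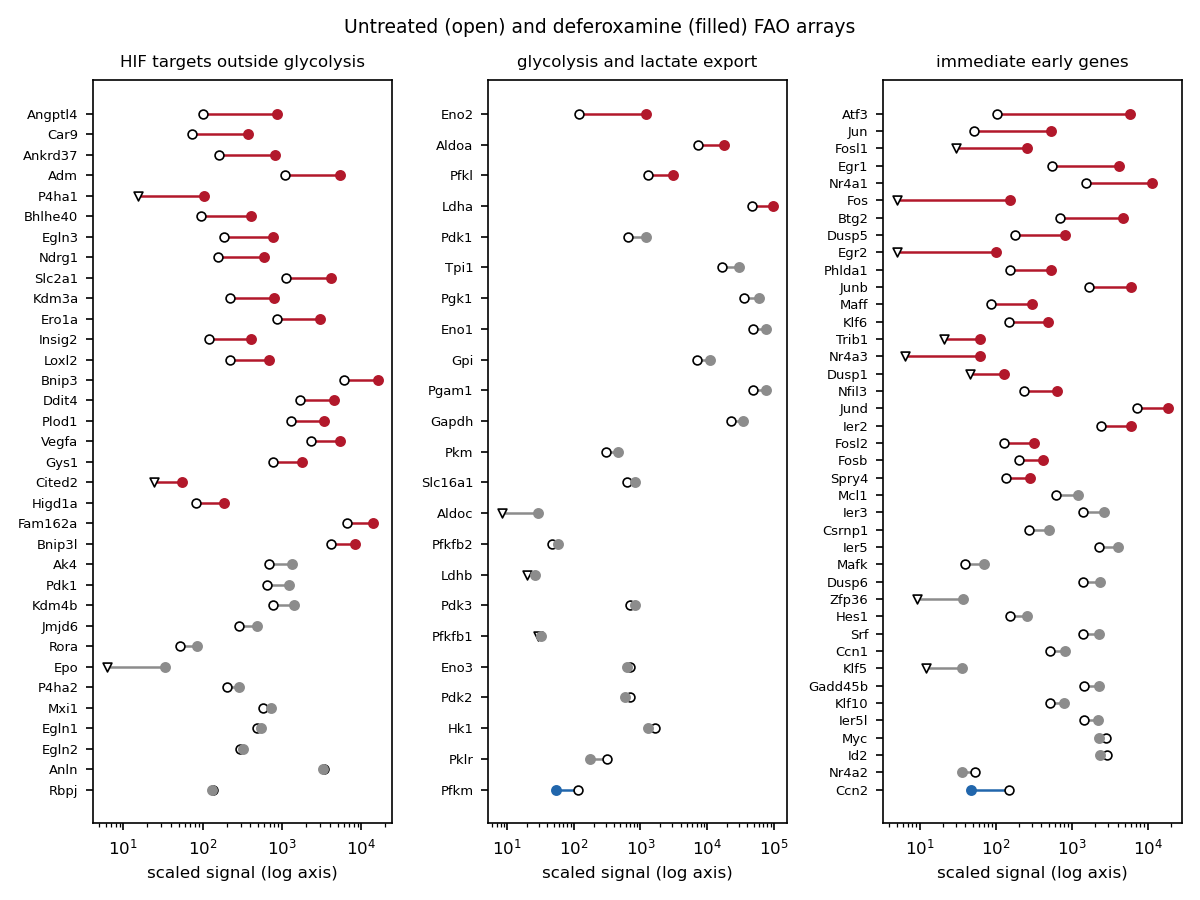
Scaled signals (log axis) of the measured HIF targets outside glycolysis, glycolytic genes and immediate early genes that are reported here on the untreated (open symbols) and the deferoxamine array (filled symbols), ordered by their difference. Red and blue lines mark genes at least 2-fold higher or lower, grey lines those within 2-fold, and triangles a signal not well above background, for which the difference in the text is a bound. The red lines cover 22 of the 34, 4 of the 23 and 22 of the 40 genes drawn, and Pfkm and Ccn2 run the other way.

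Of 34 measured genes of growth arrest and apoptosis 10 were higher and 1 lower (3.91% and 4.00% of all genes), with a median of 0.45. The lower one, Casp1, was near background. Bbc3, the pro-apoptotic protein PUMA, rose from 593 to 1604 (1.44 ± 0.14). Mdm2, a ubiquitin ligase, rose from 431 to 1112 (1.37 ± 0.15), with 1.42 by another probe, and cyclin G1 (Ccng1) from 161 to 403 (1.33 ± 0.23). Bax, a pore-forming protein of apoptosis, was at 0.07. Cdkn1a, the cell cycle inhibitor p21, went from 4796 to 5612 by its agreeing probe (0.23 ± 0.12). Another of its probes, with 1 spot per array, went from 1837 to 8777 (2.26 ± 0.16), so the arrays do not settle whether p21 RNA moved.

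RNA of the replication machinery stayed within 2-fold. Of 51 measured genes of DNA replication 0 were called in either direction, with a median of 0.16. Rrm2, the iron-containing subunit of ribonucleotide reductase, went from 28741 to 34561 (0.27 ± 0.11), and Mki67, a marker of cycling cells, from 6154 to 6772 (0.14 ± 0.05). Of 40 mitotic genes 0 were higher and 3 lower (3.91% and 4.00% of all genes), with a median of -0.13. The 3 were Cdc20 and, on single or disagreeing spots, Nek2 and Ccnb2. Cdc20, the activator of the anaphase-promoting complex, fell from 2881 to 1235 (log2 -1.22 ± 0.12), while Plk1 was at -0.89 and cyclin B1 (Ccnb1) at -0.74. Of 17 measured genes of histones and high mobility group proteins 2 were lower (4.00% of all genes) and 0 higher, H1f4 (-1.66) and H2ac4 (-1.39), both on single or disagreeing spots, with a median of -0.17. Outside the list, with agreeing spots, Hist1h2ail1 fell from 5693 to 1777 (-1.68 ± 0.12) and Hist2h3c2 from 1147 to 382 (-1.59 ± 0.13), although probes of near-identical histone copies can read each other's RNA. Ccnd1 was at -0.05, with a sign that turned under 3 alternatives.

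Stress genes were split. The integrated stress response follows phosphorylation of eIF2 alpha. In its list 5 of 34 measured genes were higher and 2 lower (3.91% and 4.00% of all genes), with a median of -0.20. Ppp1r15a (GADD34), which ends that response, rose from 738 to 2500.1 (1.76 ± 0.14) and Trib3 from 371 to 932 (1.33 ± 0.15). Ddit3 (CHOP) was at 1413 and 6094 (2.11 ± 0.15) on single or disagreeing spots. Atf4, the central factor of the response, was at 0.10, Asns at -0.52 and Phgdh at -0.56, and Cth, the cysteine-forming lyase, fell from 1768 to 611 (-1.53 ± 0.12). Of 30 chaperones 1 was higher (Hspb8, 2.01-fold, under 2-fold with 2 alternatives), with a median of -0.01.

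Among acute phase plasma proteins, 10 of 23 rose and 2 fell (3.91% and 4.00% of all genes), with a median of 0.55. The 2 that fell were Cfb and, near background, Il1rn. Reg3b, a secreted lectin, rose 9.49-fold from 475 to 4508 (3.25 ± 0.15). The 3 fibrinogen chains rose together: Fga from 2344 to 7627 (1.70), Fgg from 5141 to 13175 (1.36) and Fgb from 14813 to 30664 (1.05). Serpina3n, a protease inhibitor, rose from 2001 to 6878 (1.78 ± 0.12). Haptoglobin (Hp) did not follow, at -0.94, and complement factor B (Cfb) fell from 659.8 to 295, a call lost with another background correction.

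Among NF-kappa B targets and chemokines 7 of 28 rose and 0 fell (3.91% and 4.00% of all genes), with a median of 0.42. Cxcl10 rose from 290.3 to 2143 (2.88 ± 0.17), Cxcl1 from 93.3 to 536 (2.52 ± 0.18) and Cx3cl1 from 167 to 691 (2.05 ± 0.22), all attractants of leukocytes. Cxcl2 was at least 5.17-fold higher. Nfkbia, the NF-kappa B inhibitor, was at 0.31. Of 29 interferon-induced genes 5 were higher (3.91% of all genes), with a median of 0.26, so this increase lay in a few members. The antiviral protein viperin (Rsad2) was at least 30.9-fold higher (22.1 to 688). Ifit3 rose from 38.1 to 252 (2.73 ± 0.84) and Isg15 from 236 to 675, whereas Mx1 was at -0.09, Stat2 at -0.10 and Irf7 at 0.52. Of the 8 leukocyte markers Lyz2 was above background on both arrays (100.3 and 52.98) and Cd68 on the treated array alone (10.95 and 30.8). The summed signal of all 8, most of it from these and from probes at background, was 142 and 113. Their part in the increases was not tested.

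Of the genes that carry iron into cells, the transferrin receptor rose. Tfrc was read by one probe with agreeing spots, near background, at 31.2 and 127 (2.02 ± 1.06). Its brighter probe, with a single usable treated spot, was at 3954 and 14032 (1.83 ± 0.15). Lcn2, which binds iron-loaded siderophores and is also an acute phase protein, rose from 30.7 to 161 (2.39 ± 1.06). Of 12 measured import genes these 2 were higher and 0 lower (3.91% and 4.00% of all genes), with a median of 0.18. Transferrin (Tf), the plasma carrier, went from 52578 to 100492 (0.93 ± 0.11), short of 2-fold, the importer Slc11a2 was at 0.38 and Tfr2 at 0.06, with a sign that turned under 2 alternatives.

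Ferritin and ferroportin RNA stayed within 2-fold. Fth1 went from 76296 to 84713 (0.15 ± 0.11) and was at -0.41 by another probe. Ftl1 was at 0.07 ± 0.11. Slc40a1, the exporter ferroportin, was at 0.22 ± 0.14 by one probe and -0.34 by another. The signs for Fth1, Ftl1 and Slc40a1 turned under 3, 1 and 2 alternatives. Hepcidin (Hamp), the hormone that closes ferroportin, was read by 8 spots per array that did not overlap, from 661 to 742 and from 1011 to 1207, a difference of 0.68 ± 0.07 that stayed within 2-fold. Aco1 was at 0.02, Ireb2 at 0.60 ± 0.87 near background, and Ncoa4, the receptor for ferritin breakdown, at 0.76. Ceruloplasmin (Cp) was the 1 member called, as higher, of 20 (3.91% of all genes were higher and 4.00% lower). It was at 1.64 ± 0.87, but a second measured probe gave 0.10 and the call was lost with that probe.

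In heme metabolism the first enzyme of synthesis and the first of breakdown rose while most other members lay below 0. Of 22 measured genes 2 were higher and 1 lower (3.91% and 4.00% of all genes), and 18 lay below 0, with a median of -0.43. The lower one was the exporter Abcg2 (-1.05 ± 0.70, a call lost under 4 alternatives). Hmox1, which breaks heme down and releases its iron, rose from 789 to 2812 (1.83 ± 0.06). Alas1, the first enzyme of heme synthesis in liver, rose from 3844 to 8905 (1.21 ± 0.12), or 0.99 with another background correction. Ferrochelatase (Fech), which inserts the iron, was at -0.61 and Alad at -0.55. Of 26 genes of iron-sulfur cluster assembly 0 were called, with a median of -0.12. Nfs1, the cysteine desulfurase that supplies the sulfur, lay lowest at -0.97.

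RNA of energy metabolism was nearly level. Of 78 measured genes of the respiratory chain and ATP synthase 0 were called, with a median of -0.19, and 61 lay below 0. Of 27 citrate cycle genes 1 was lower, cytosolic Idh1 (5386 to 2498, -1.11 ± 0.12), and 25 lay below 0 with a median of -0.23. The 42 measured genes of fatty acid oxidation had a median of 0.00, with 3 higher (Acot2, Acot1, Cpt1b) and 1 lower (Bdh1). Over all genes 3.91% were higher and 4.00% lower. Acot2, a mitochondrial acyl-CoA thioesterase, rose from 842 to 2826 (1.75 ± 0.13). Plin2, the coat protein of lipid droplets, rose from 7555 to 23071 (1.61 ± 0.11), whereas the fatty acid transporter Cd36 was at least 4.44-fold lower (86.8 to 16.3) and the lipase inhibitor G0s2 at least 3.99-fold lower. Plin2, Cd36 and G0s2 belong to a list of 33 lipogenesis and lipid droplet genes, of which 1 was higher and 3 lower (3.91% and 4.00% of all genes). The 29 cholesterol genes had a median of 0.25, with Insig1 higher (1.62) and Mylip lower (-1.56), both on single or disagreeing spots. The 75 ribosomal protein genes had 0 calls and a median of 0.09, which turned sign under 1 alternative, and the 36 proteasome genes 0 calls and a median of -0.25.

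Several groups of enzymes typical of the differentiated liver held decreases. Of 30 measured cytochromes P450 and their partners 10 were lower and 2 higher, against 4.00% lower among all genes, with a median of -0.56. Cyp2e1, which oxidises ethanol and other small molecules, was read by 9 spots per array. They spanned 2362 to 2804 in untreated and 640.4 to 785 in treated cells (-1.86 ± 0.06). Cyp3a18, a steroid and drug hydroxylase, fell from 809.7 to 227 (-1.84 ± 0.07), and Cyp2f4, which was on no list, from 674 to 145 (-2.21 ± 0.22). Cyp2a1, a testosterone hydroxylase, fell from 205 to below background, at least 8.22-fold lower. Over the alternatives 5 to 13 P450 genes were lower.

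Of 51 conjugating and other detoxifying enzymes 12 were lower and 3 higher (4.00% and 3.91% of all genes), with a median of -0.37. The aldehyde dehydrogenase Aldh1a7 fell 11.5-fold from 1459 to 127 (-3.53 ± 0.21) and Aldh1a1, which makes retinoic acid, 5.99-fold from 1559 to 260.3 (-2.58 ± 0.14). Other members of the family were within 2-fold, Aldh2 at -0.17 and Aldh3a1 at 0.60. Sult1b1, a sulfotransferase, fell from 2134 to 673 (-1.66 ± 0.12) and Gsta5, a glutathione transferase, from 41154 to 14594 (-1.50 ± 0.11). Gstm3, of another class of glutathione transferases, rose from 108 to 345 (1.68 ± 0.23). Such families hold close paralogs whose RNA a probe can share. The related antioxidant targets of NRF2 were split at 3 higher (Hmox1, Cbr1, Cbr3) and 3 lower (Akr7a3, Nqo1, Akr1c19) of 41. Over all genes 3.91% were higher and 4.00% lower. Cbr3, a bound near background, Nqo1 and Akr1c19 lost the call with another background correction, at 0.78, -0.93 and -0.90.

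In bile acid metabolism 5 of 20 genes fell and 1 rose (4.00% and 3.91% of all genes), with a median of -0.53. Baat, which joins bile acids to glycine or taurine, fell from 2165 to 579 (-1.90 ± 0.12), and Nr0b2 (SHP), the repressor induced by bile acids, from 6675 to 2823 (-1.24 ± 0.11). The 1 higher was Abcb1b, a multidrug exporter (1401 to 4071, 1.54 ± 0.12). Of 38 amino acid and urea cycle genes 5 fell and 1, Gldc, rose (4.00% and 3.91% of all genes). Their median was -0.56, and 31 of the 38 lay below 0. Haao of the kynurenine pathway fell from 893 to 296 (-1.59 ± 0.14), Hao1, a glycolate oxidase, from 134 to 39.5 (-1.76 ± 0.70) and arginase (Arg1) from 278 to 129.7 (-1.10 ± 0.11, or -0.92 with another background correction). Ddc, the aromatic amino acid decarboxylase, which was on no list, fell from 5806 to 1552 (-1.90), with -1.91 by its other probe.

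**Figure D3:**
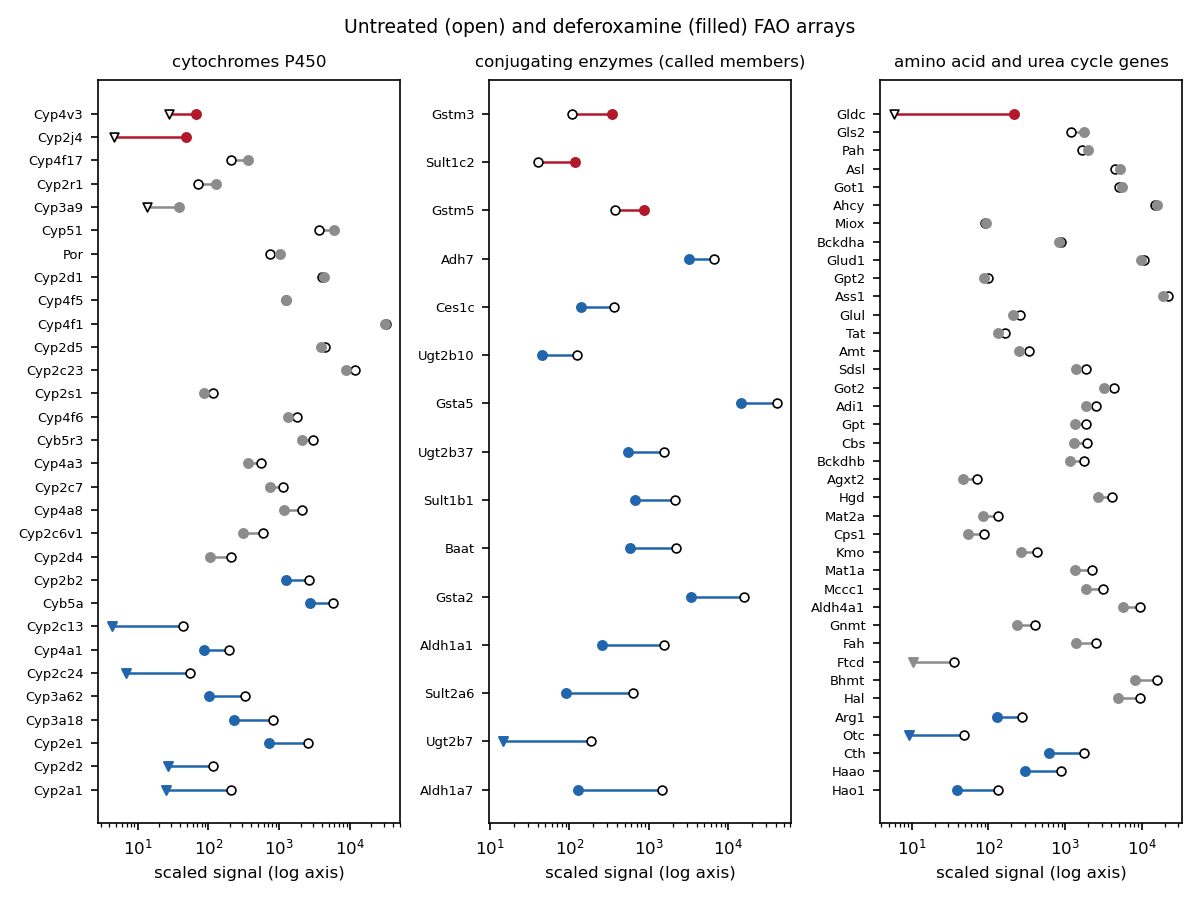
Scaled signals (log axis) on the untreated (open) and deferoxamine (filled) arrays of measured cytochromes P450 and partners, of the called conjugating enzymes, and of amino acid and urea cycle genes, ordered by their difference. Colours and triangles are as in the plot of induced groups. Blue lines mark 10 of 30 P450 genes, 12 conjugating enzymes and 5 of 38 amino acid genes.

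Of 40 measured plasma proteins and markers 4 were lower and 2 higher (4.00% and 3.91% of all genes). The median of the 40 was -0.09 and turned sign under 1 alternative. Apob, the backbone of very low density lipoprotein, went from 2478 to 1012 (-1.29 ± 0.12), or -0.96 with another background correction. Apoc2 fell from 667 to 228 (-1.55 ± 0.15), and Selenop, the selenium carrier, which was on no list, from 884 to 219 (-2.02 ± 0.14). Igfbp1, which binds insulin-like growth factors and is a known HIF target in liver, rose 5.12-fold from 3058 to 15659 (2.36 ± 0.12). Igf1 itself was at least 8.05-fold higher (25.2 to 203), and by at least 1.81 on the log2 scale by its other probe. Of 16 genes of the growth factor axis 4 rose and 1 fell (3.91% and 4.00% of all genes). The 1 that fell was Igfbp2, a bound on single or disagreeing spots. Among transcription factors Hnf4a was at -0.90 and Nr1i2 (PXR) at -0.72, both within 2-fold. Of 29 such factors 2 were lower (Nr0b2, Nr1i3) and 1 higher (Cebpb), against 4.00% and 3.91% of all genes, with a median of -0.31.

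A split by tissue rather than function gave the following counts. Among measured genes at least 8-fold brighter in rat liver than in kidney on the iron-sufficient diet, 46 of 306 were lower in treated FAO cells and 24 higher, with a median of -0.22. Of 307 genes brighter in kidney by that margin 28 were lower and 20 higher, and of 5026 genes within 2-fold between the tissues 67 were lower and 84 higher. Both tissue-enriched sets were called more often, in both directions, than all measured genes (3.91% higher and 4.00% lower). The evenly expressed genes were called less often than all measured genes, at 1.67% higher and 1.33% lower. Calls also depended on signal, as given below, and whether signal accounts for these differences between the sets was not tested.

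**Figure D4:**
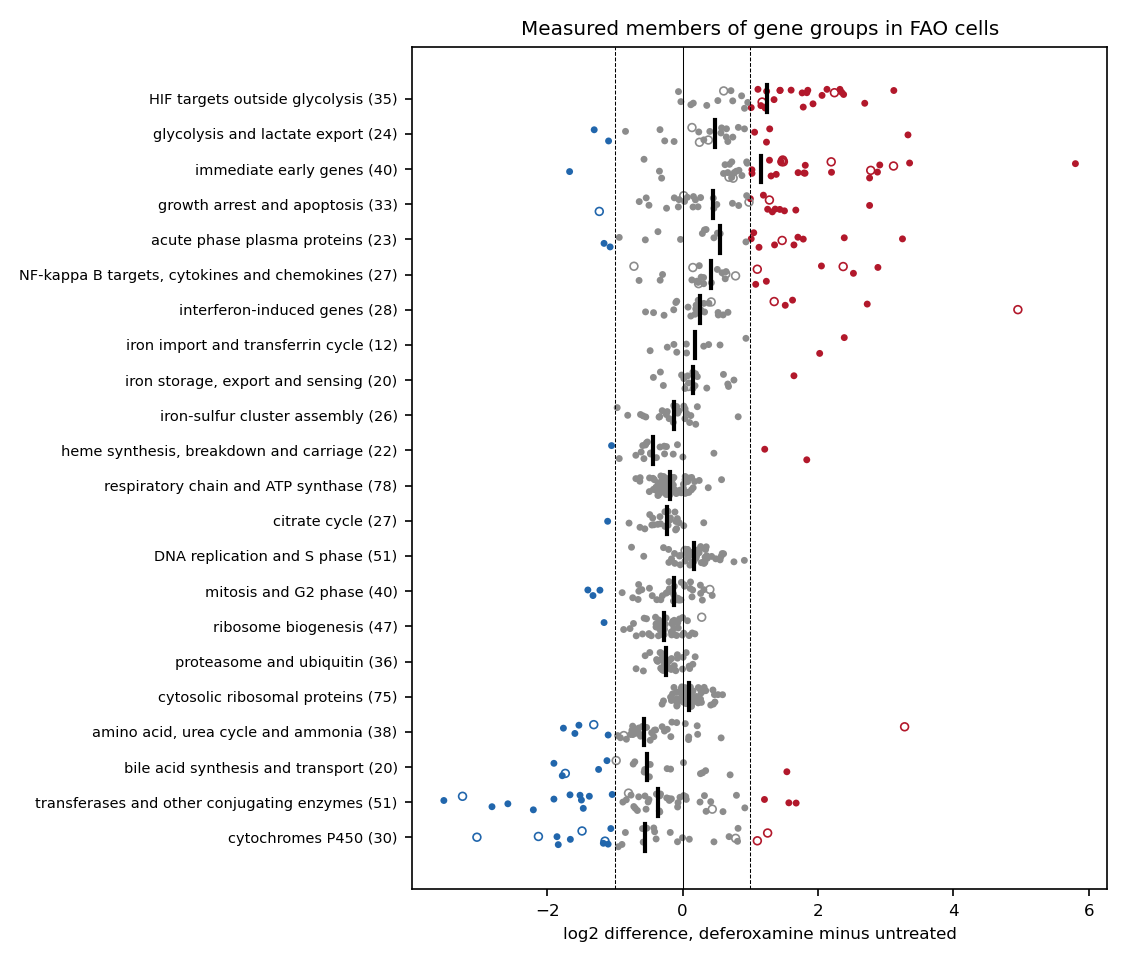
Log2 difference (deferoxamine minus untreated) of every measured member of 22 gene groups that had a value, with their number in brackets. Open circles are bounds, black bars are medians, and red and blue mark at least 2-fold. Medians run from 1.24 for HIF targets to -0.56 for P450 genes and amino acid genes, while the respiratory chain, ribosomal and proteasome genes form narrow clouds near 0.

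A few other changes stood out. Tuba1a, an alpha-tubulin, rose from 2332 to 10486 (2.17 ± 0.06), and Anxa2, a membrane-binding protein that also serves as a receptor for plasminogen activation, from 16784 to 46313 (1.46 ± 0.11). Among 32 genes of the cytoskeleton and adhesion these 2 were the higher ones and 0 were lower. For this and the list counts that follow, the shares over all genes were 3.91% higher and 4.00% lower. Atp1b1, the beta subunit of the sodium pump, fell from 2111 to 556 (-1.92 ± 0.12). Gpd1, the glycerol phosphate dehydrogenase, fell from 1920.1 to 625 (-1.62 ± 0.12). The clock repressors Bhlhe40 and Nfil3 rose from 93.9 to 412 and from 233 to 639, among 16 clock genes of which 2 others fell on single or disagreeing spots (Ciart and Npas2). Of 19 secreted matrix and protease genes 4 rose and 0 fell, among them Plat, Loxl2 and, as a bound, Mmp2. Of 18 genes of the TGF-beta and Notch response 1 rose, and Bambi (558 to 233, -1.26 ± 0.15) and Tgfb3 (-1.08) fell. In the smaller lists the calls were few: of 26 mitophagy and lysosome genes 3 rose (Bnip3, Bnip3l, Dram1), of 25 cyclins and inhibitors 1 rose (Ccng1), of 47 ribosome biogenesis genes 1 fell (Noc2l), and of 33 serine, folate and nucleotide genes 1 rose (Dck). Of 10 genes around ascorbate synthesis Slc2a1 rose and Aldh1a1 fell, and Rgn (regucalcin), a lactonase of that pathway, went from 2256 to 1298 (-0.80 ± 0.05).

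Where a gene had several probes with agreeing spots, the readings, bounds included, were set side by side. Of 511 such genes 22 were higher by the brightest probe. The next one was called higher in 18 of them and pointed the same way in 22. Of 7 lower genes it was called in 5 and pointed the same way in 7. Colq, called at 2.01 by one probe, was at 0.09 by another. For Acer2 and Akr1e2 (2.63 and -2.04) the other probe gave only bounds, at least 1.38 higher and a fall whose bound was -0.97, so the size of the gap is not known. Calls were more frequent where signals were low: of 4 equal sets ordered by signal, 12.8% of the dimmest and 4.34% of the brightest genes were called, with median spot standard errors of 1.07 and 0.12.

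Iron lack in the animals was set beside the FAO values. The diet arrays share no sample with the FAO arrays. Of the 202 genes with agreeing spots that rose in FAO cells, 156 were measured in liver, where 49 (31.4%) were also at least 2-fold higher on the iron-free diet and 6 (3.85%) lower. Of all 5975 genes with agreeing spots measured in both, 5.39% were higher and 1.76% lower in liver. In kidney 13 of 121 were higher, against 71 of all 5243 (1.35%). Of the 154 genes that fell in FAO cells 127 were measured in liver, and 12 were lower there (9.45%, against 1.76%) and 8 higher (against 322 of all 5975). Eno2, Slc2a1, Aldoa, Pfkl, Plod1, Egln3, Tfrc, Btg2 and Nr4a1 were higher in both, and Aldh1a1, Nr0b2 and Ddc lower in both.

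Other genes went opposite ways. Angptl4, a target of the fatty acid receptor PPAR alpha as well as of HIF, was 3.12 higher in FAO cells and at -1.17 in liver and -1.66 in kidney. Acot2 was at 1.75 and -1.07 in liver, and Hsd17b2, a steroid dehydrogenase, at least 2.39 higher in FAO cells and at -2.97 in liver. Nqo1 fell in FAO cells (-1.24, or -0.93 with another background correction) and was at least 1.39 higher in liver. The mitotic genes had a median of -0.13 in FAO cells and 1.51 in liver, and fatty acid oxidation 0.00 and -0.56. The liver medians cover only those of the members that had a value there, bounds included, so the gene sets can differ. These differences between the experiments were not tested.

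**Figure D5:**
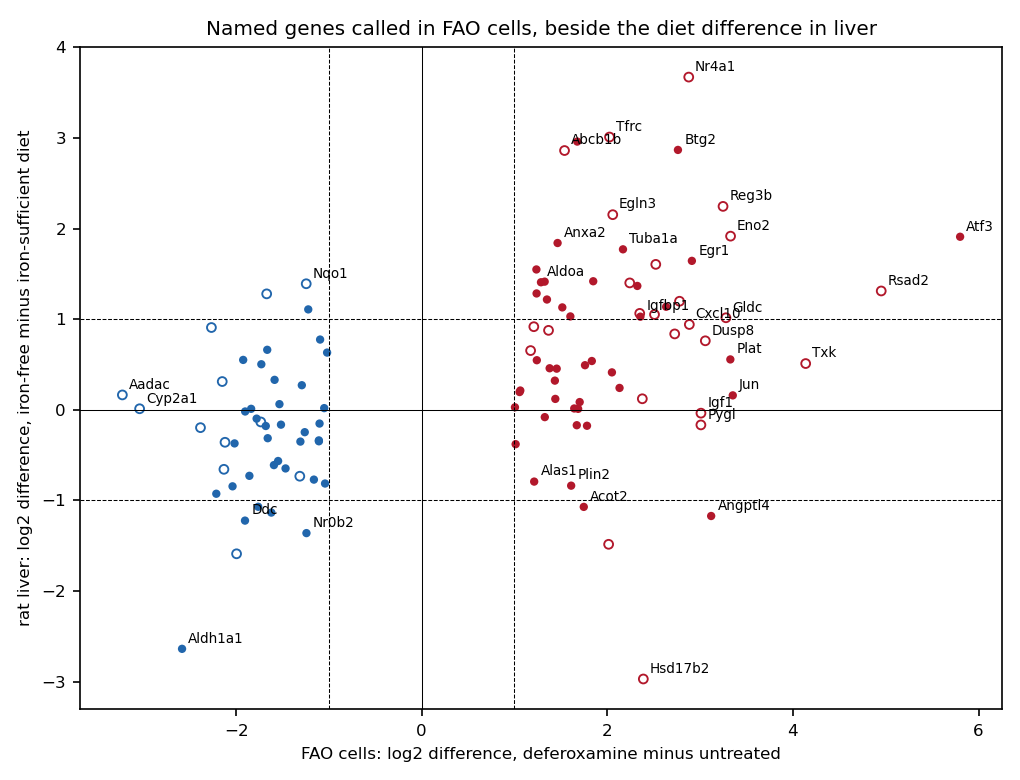
Log2 difference in FAO cells (deferoxamine minus untreated, horizontal axis) and in rat liver (iron-free minus iron-sufficient diet, vertical axis) for the 114 named genes called in FAO cells with agreeing spots and measured in liver. Each axis is 1 array against 1 array, open circles are bounds on either axis, and dashed lines mark 2-fold. Of 67 genes higher in FAO cells 30 were also higher in liver and 4 lower, and of 47 lower ones 6 were also lower and 3 higher. Named genes were selected, mostly by size of difference or list, so these counts do not stand for all genes. Over all genes with agreeing spots, 31.4% of those higher in FAO cells were higher in liver, against 5.39% of all measured in both. Of those lower in FAO cells 9.45% were lower in liver, against 1.76%.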

How the data were processed

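Per the file headers, the authors scanned array design 028279 (header build rn4) and ran Feature Extraction 10.7.3.1. Its deposited processed signal is a background-subtracted, spatially detrended intensity on a linear scale. All 6 arrays share 1 slide. The authors' deposited table also gives log2 values per probe, used as an alternative. Here control spots, outlier flags and the dim rectangle were left out. Log2 intensities of a probe's spots were averaged and each array was set to its 75th percentile over 8968 probes (29.5%) that every one of the 6 arrays read well above background. Gene IDs came from the authors' table, and current symbols and promoters from RefSeq GRCr8. The probe standing for a gene was the brightest with agreeing spots, otherwise the brightest measured. Of 30367 gene probes 48.5% were well above background on the untreated and 49.8% on the treated array, and no gene spot was saturated. The number of arrays, 1 per group, limits the precision. The steps were checked on simulated data with changes planted only in brighter genes. The same background flags were used on every simulated array, so bounds and changes in dim genes were not tried.

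Members and the 43 gene lists (1560 genes, 33 of them unmatched) were chosen with earlier results of these data known, so no count over a list is independent support for its direction. Genes were named by rule: the 15 largest differences each way with agreeing spots and a brighter signal above the median, the 8 largest bounds each way, up to 8 called members of each list, the called genes with the widest gaps between probes, and 27 genes of iron, oxygen and growth control. Others in the text are list members given for context or are said to have been picked afterwards. Python 3.11.15, numpy 2.4.6, pandas 2.3.3, R 4.3.3 and limma 3.58.1 were used, limma only for normexp background correction. Normexp was run on the median spot signals with an offset of 50. Some genes are not reported here.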

Additional observations from a re-analysis of the deposited data

How the results depend on the processing

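The counts of 418 higher and 428 lower genes were recomputed under 14 alternatives. They stayed within 1.5 times under the other scalings, quantile normalization, leaving out noisy blocks of spots, the stricter agreement and the other rules for choosing a probe (405 to 493 higher, 367 to 443 lower). With the dim rectangle kept 683 were lower, and 664 in the authors' deposited log2 values, against 432 and 450 higher; the share of calls that were higher was then 38.7% and 40.4%, against 49.4%. Normexp gave 261 lower genes beside 336 higher and was added after seeing the data, with the median spot signal in place of the planned mean. Counts were 202 and 154 with agreeing spots only, 264 and 244 among genes above background on both arrays, and 1183 and 1462 with no filter on dim probes. No scaling moved the median of all genes by more than 0.1. Of the 125 named genes called, 101 kept the call under the alternatives that gave a value, 24 lost it under at least 1 (most often normexp) and 0 turned sign. The sign of a list median turned for 7 of 43 lists, with reported medians between -0.09 and 0.11. No paired analysis was possible because each group is 1 array. Pools of 3 cultures hide the spread between cultures, arrays and treatment cannot be told apart with 1 array each, and genes near background have wide spot errors.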
